A study of Caenorhabditis elegans with 30 samples.

Results

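The comparison described here sets worms kept overnight at 15 C against worms kept at 20 C, both on plain agar, and covers 6 of the 30 RNA-seq libraries of a study of forgetting in Caenorhabditis elegans. Its members are the libraries whose labels give an untrained worm, no lithium, no cold shock and a cultivation temperature of 15 C or 20 C, with 3 libraries at each temperature. All 6 came from whole worms of N2, the laboratory wild type, fed the OP-50 strain of E. coli. The plates were NGM, the standard nematode growth agar, which served as the control for plates with 15 mM lithium chloride. The labels describe the night at 15 C as the treatment that makes worms tolerant of cold, whereas worms held at 20 C stay cold sensitive. The other 24 libraries hold the same temperature contrast on lithium agar (6 libraries) and worms placed on ice for 2 hours (18 libraries). Age, sex, the number of worms in a library and whether the replicates were grown separately are not given in the sources used here. The p-values of the main fit below therefore measure the spread between libraries. It was estimated from all 12 untrained libraries, those on lithium agar included.

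C. elegans takes the temperature of its surroundings, and both 15 C and 20 C lie within the range in which it grows and breeds. Cooling slows development and growth and stiffens membranes, which the worm is known to counter by inserting double bonds into its fatty acids. The intestine is the main site of fat storage, of detoxification and of the defence against swallowed bacteria, and it also takes part in the cold tolerance that worms acquire after a spell at a lower temperature.

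The 6 libraries held between 12039753 and 21957091 counts in genes. Replicates differed from each other by far more than counting error, with chi-square values per degree of freedom from 24.99 to 392, ribosomal RNA rows included. The value was 24.99 for 15 C replicates 2 and 3, and 392 and 376 for 15 C replicate 1 against replicates 2 and 3. At 20 C it ran from 124 to 147. The part of ribosomal RNA in these values was not tested. Levels are given as CPM, counts relative to the library's size after TMM scaling, an adjustment for differences in RNA composition, in the order of replicates 1, 2 and 3. All 11 sets of cell type markers fixed for the whole worm were present except male markers, whose summed level was 0.66 to 2.13 CPM with 3 of 10 genes (cwp-1, cwp-2 and cwp-3) at 0. Sperm markers were also low, with a summed level of 5.76 to 15.5 CPM over 17 genes. Of these, msd-1 was at 0 and 10 did not pass the filter on low counts.

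The libraries differed in ribosomal RNA content and in their moulting and germline genes. Ribosomal RNA rows took 8.14%, 3.35% and 1.399% of the counts at 20 C and 1.31%, 28.4% and 24.2% at 15 C. Replicates 2 and 3 at 15 C were therefore high and replicate 1 was as low as any 20 C library, so the groups overlapped (mean 17.96% ± 14.6 against 4.29% ± 3.47, SD, n = 3 each, two-sided exact permutation p = 0.4, where the smallest possible p is 0.1). The 20 C replicate 2 differed from the other 20 C libraries in another way. Its median level of 31 moulting and cuticle genes stood 2.93 log2 units above the mean of the 12 untrained libraries, against 0.24 and 0.45 in 20 C replicates 1 and 3, and its germline and oocyte genes stood at -1.099 against that mean, where the other 20 C libraries stood at -0.23 and -0.09. At 15 C the moulting and cuticle genes stood at -0.31, 0.79 and 0.06, so replicate 2 was apart from its group as well and above 20 C replicates 1 and 3.

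Of 12392 genes tested, 1235 (9.97%) differed between 15 C and 20 C at an adjusted p of at most 0.05 in edgeR's quasi-likelihood test with Benjamini-Hochberg adjustment. Of these, 272 (2.19%) were higher at 15 C and 963 (7.77%) were lower. The fall was also larger than the rise, with a median log2 fold change of -1.33 for the called lower genes and 0.65 for the called higher genes, against -0.07 for all genes tested. The libraries of both groups did not overlap for 5667 genes (45.7%), and 4916 genes (39.7%) had an unadjusted p under 0.05. Counts of called or non-overlapping members in the lists below stand against these shares of all genes. The lowest adjusted p was 0.0136. DESeq2, run as an alternative, called 1217 genes higher and 1746 lower.

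How many genes were called depended on single libraries. Without 15 C replicate 2 or replicate 3 no gene was called, with 3952 and 2850 genes at an unadjusted p under 0.05. Without 15 C replicate 1, 12 genes were higher and 187 lower. Without 20 C replicate 2, 0 were higher and 69 lower, whereas without 20 C replicate 1 there were 625 and 1793, and without 20 C replicate 3 there were 831 and 1997. The 6 plain libraries fitted without the lithium libraries gave 0 calls and 3530 genes at an unadjusted p under 0.05. The lithium libraries, which enter the same fit, also changed the counts. Leaving out 1 of them gave 17 higher and 310 lower (15 C lithium replicate 1), 20 and 403 (15 C lithium replicate 3), 28 and 504 (20 C lithium replicate 2) or 64 and 479 (20 C lithium replicate 3), while without 15 C lithium replicate 2 or 20 C lithium replicate 1 there were 318 and 873 or 193 and 999. The size of the falls was smaller without 20 C replicate 2, with a median of -1.02 for the 963 called lower genes and 0.55 for the 272 called higher genes. The sign says little here, since 1222 of the 1235 called genes have libraries that do not overlap and leaving out a plain library cannot turn those.

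**Figure D1:**
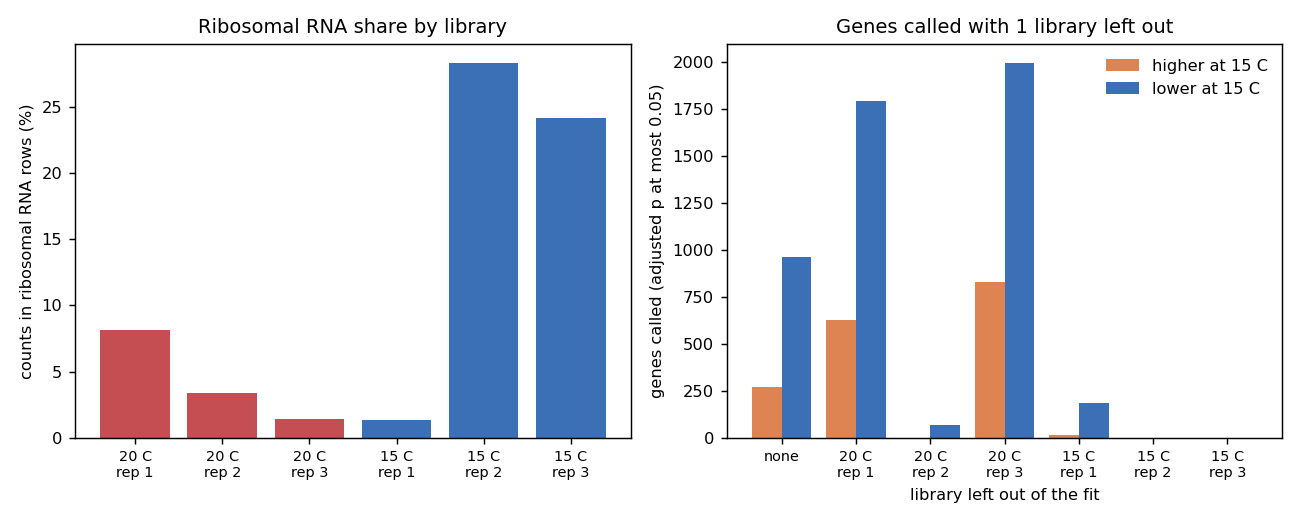
Left, the share of counts in ribosomal RNA rows (percent, bars from 0) in each of the 6 libraries, red for 20 C and blue for 15 C. Right, the number of genes called higher (orange) or lower (blue) at 15 C with all libraries and with each library left out in turn. The 15 C replicates 2 and 3 stand at 28.4% and 24.2%, and leaving out either leaves no gene called.

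The weight of the ribosomal RNA share was examined with a covariate, the log2 of the share, and with the libraries low in it. The covariate is partly tied to temperature, since the high shares lie in 15 C replicates 2 and 3. With this covariate, 0 genes were called higher and 55 lower (3973 at an unadjusted p under 0.05), all 55 of them among the 1235. In that fit the 963 called lower genes had a median of -1.27. With 15 C replicate 1, the library low in ribosomal RNA, as the only 15 C plain library, 0 genes were called and 971 had an unadjusted p under 0.05. In the fit with 15 C replicate 1 alone the called lower genes had a median of -1.02 and the called higher genes 0.67, where the median of all genes was 0.02. The pair of libraries with the most similar low shares, 15 C replicate 1 and 20 C replicate 3, gave smaller differences. The log2 ratio of the first to the second, on the log2(CPM + 2) scale and with no test, had a median of -0.49 over the called lower genes, 0.38 over the called higher genes and -0.02 over all genes. Of the 138 called genes that are named, 117 moved by more than the larger SD of the 2 groups in this ratio. It was -0.62 for lys-2, -0.52 for tts-1 and 0.33 for fib-1, whose fitted log2 fold changes are given below.

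Scaling moved the balance of the calls. Upper quartile scaling called 87 genes higher and 1774 lower (4.67% of calls higher, where 272 of 1235 were higher with TMM), and library size alone 12 and 1966 (0.607%). Those scalings shifted the median of all genes from -0.07 to -0.25 and -0.31, and the medians of the gene lists below moved down with it.

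Genes for making ribosomes were higher at 15 C, and no other list held as many rises. Of 40 tested genes for nucleolar proteins and ribosomal RNA processing, 19 rose and none fell, and 39 of the 40 had a positive log2 fold change (median 0.54). The 19 are 47.5% of the list, against 2.19% of all genes called higher. Levels did not overlap between the temperatures for 34 of the 40, against 45.7% of all genes. Among the best supported, fib-1, which encodes fibrillarin, the methyltransferase of the box C/D particles that modify ribosomal RNA, stood at 409, 381 and 502 CPM at 20 C and 632, 758 and 781 CPM at 15 C. Every 15 C library was above every 20 C library for fib-1 (log2 fold change 0.75, SE 0.15, adjusted p = 0.0276). Its partners nol-56 and nol-58 behaved alike: nol-56 stood at 241, 229.9 and 287 CPM at 20 C and 387, 417 and 469.5 CPM at 15 C (log2 fold change 0.75, SE 0.14, adjusted p = 0.0259), and nol-58 at 256, 236 and 266 CPM at 20 C and 364, 419 and 459 CPM at 15 C (log2 fold change 0.71, SE 0.14, adjusted p = 0.0267). For both genes, replicate 1 was the lowest of the 15 C libraries and still above all 20 C libraries. The ribosomal RNA methyltransferase gene nsun-1 stood at 81.6, 73.4 and 79.9 CPM at 20 C and 118, 133 and 131 CPM at 15 C, again with no overlap (log2 fold change 0.70, SE 0.12, adjusted p = 0.0242), although 1299 of its exonic bases overlap a gene on the other strand and the strand setting of the counting is not given in the sources used here.

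The 10 called genes named for the largest rises were F42A10.7, R03D7.2, rbm-3.1, snu-13, K09H9.7, nucl-1, W04C9.4, C33F10.4, ddx-52 and aptf-3. The gene snu-13, which encodes another core protein of box C/D particles and is not on the list above, stood at 229, 181 and 280.1 CPM at 20 C and 406, 428 and 548 CPM at 15 C (log2 fold change 1.001, SE 0.21, adjusted p = 0.0276). The nucleolin gene nucl-1, also not on that list, stood at 322, 454 and 625 CPM at 20 C and 819, 995 and 979 CPM at 15 C (log2 fold change 0.99, SE 0.23, adjusted p = 0.0327). All 15 C libraries lay above all 20 C libraries for both. The helicase gene ddx-52, whose yeast relative acts in making the small ribosomal subunit, is one of the 19 called nucleolar genes and stood at 26.5, 36.9 and 54.3 CPM at 20 C and 64.8, 72.7 and 78.4 CPM at 15 C (log2 fold change 0.87, SE 0.25, adjusted p = 0.0468). The 20 C replicate 3 was nearest to the 15 C libraries for ddx-52 and nucl-1.

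The gene rbm-3.1 encodes an RNA-binding protein named after RBM3, which is known in mammals as a protein induced by cold. Its level was 343, 182 and 319 CPM at 20 C and 539.9, 534 and 666 CPM at 15 C, with 20 C replicate 2 the lowest and no overlap (log2 fold change 1.04, SE 0.26, adjusted p = 0.0375). The uncharacterised gene F42A10.7 on chromosome III had the largest rise of those named, at 10.99 to 18.02 CPM at 20 C and 29.8, 93.04 and 66.8 CPM at 15 C (log2 fold change 2.05, SE 0.40, adjusted p = 0.0276). Its 15 C replicate 1 was the closest to the 20 C libraries. R03D7.2 stood at 12.07, 6.1 and 12.32 CPM at 20 C and 30.3, 35.2 and 22.2 CPM at 15 C (log2 fold change 1.52, SE 0.29, adjusted p = 0.0267), with every 15 C library above every 20 C library. The transcription factor gene aptf-3, of the AP-2 family, stood at 30.4, 20.3 and 39.8 CPM at 20 C and 53.9, 54.7 and 57.5 CPM at 15 C (log2 fold change 0.87, SE 0.21, adjusted p = 0.0359), with a narrow 15 C group and no overlap.

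Ribosomal protein genes had small positive values and few calls. Of 77 tested, 4 rose (rpl-9, rpl-21, rpl-24.2 and rpl-25.2), none fell and 75 had a positive log2 fold change, with a median of 0.38. The level of rpl-21 was 937, 793 and 947 CPM at 20 C and 1264, 1329 and 1380 CPM at 15 C (log2 fold change 0.57, SE 0.15, adjusted p = 0.0387), and no 15 C library fell into the 20 C range. The 4 rises are 5.19% of the family, against 2.19% of all genes called higher. These 2 lists kept positive medians under library size scaling (0.29 for nucleolar genes and 0.14 for ribosomal protein genes) and without 20 C replicate 2 (0.53 and 0.30). With 15 C replicate 1 as the only 15 C plain library, where ribosomal RNA took 1.31% of the counts, the medians were 0.53 and 0.39.

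**Figure D2:**
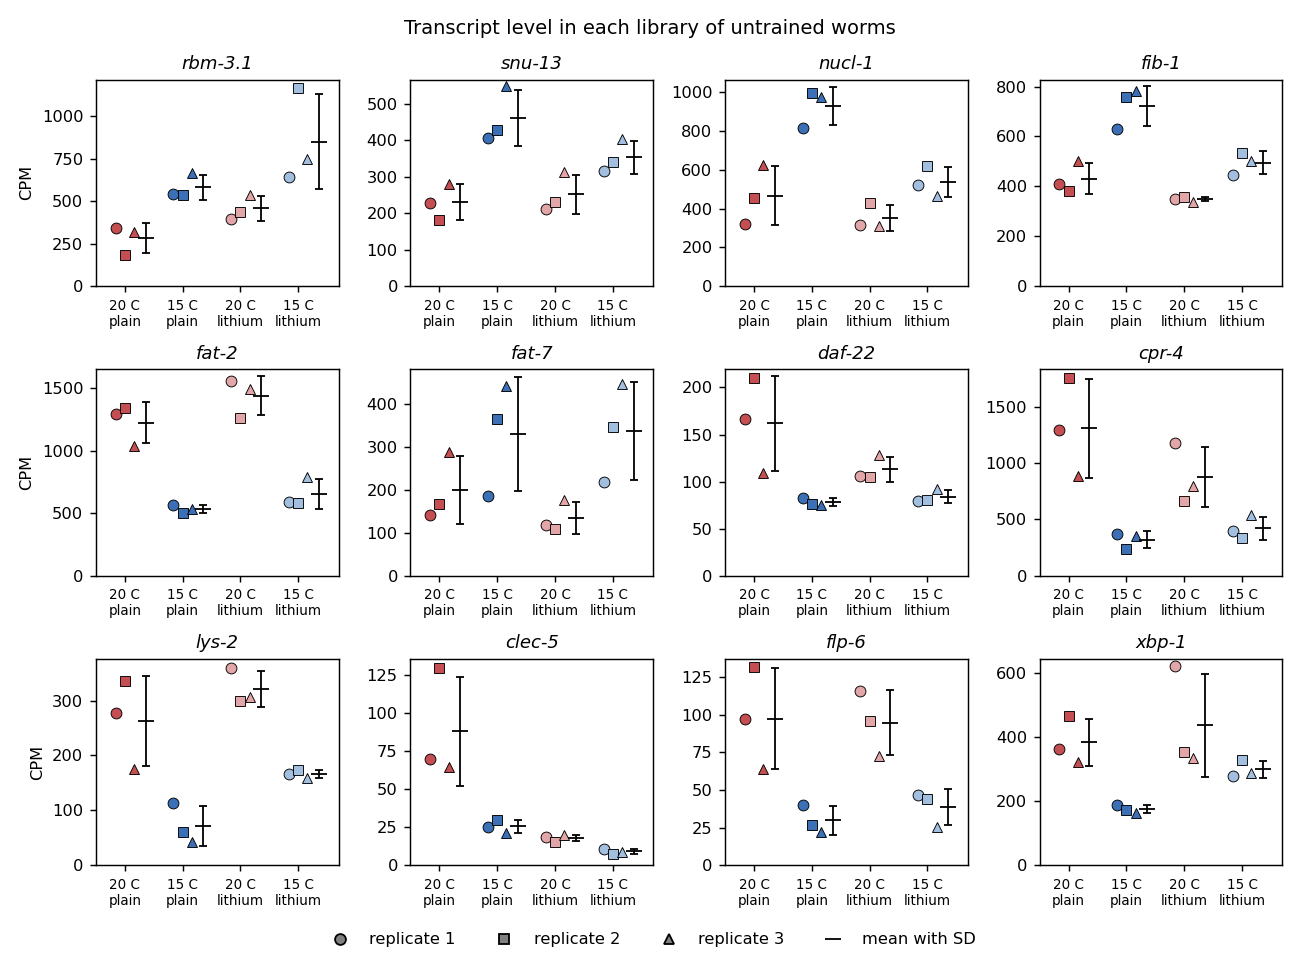
Level (CPM, linear axis from 0) of 12 genes in each untrained library, with symbols for replicates 1 to 3 and a black bar for the mean with its SD (n = 3). In the 2 plain groups, 11 of the 12 genes show no overlap, and fat-7 overlaps. The lithium libraries are shown for comparison.

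Germline genes had mostly positive values and few calls. Of 40 germline and oocyte genes, 38 had a positive log2 fold change (median 0.56) and 32 did not overlap, against 45.7% of all genes. The list held 1 call (2.5%, where 2.19% of all genes were called higher), daz-1, a gene for an RNA-binding protein needed in the female germline. The level of daz-1 was 181, 163 and 289 CPM at 20 C and 353, 338 and 348 CPM at 15 C, with 20 C replicate 3 highest of its group and no overlap (log2 fold change 0.71, SE 0.20, adjusted p = 0.0465). The summed germline markers stood at 6226, 3503 and 6045 CPM at 20 C and 7763, 7378 and 8416 CPM at 15 C, and oocyte and eggshell markers at 9561, 5299 and 9952 CPM against 11367, 10953 and 11453 CPM. For both sums 20 C replicate 2 was the lowest, and all 15 C libraries were above all 20 C libraries. Without 20 C replicate 2 the median of the 40 genes was 0.32. In whole worms more germline cells and more RNA per germline cell cannot be told apart, and the same holds for every tissue below.

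Among 16 tested desaturase and elongase genes, 3 fell at 15 C and none rose: fat-1, fat-2 and fat-3, which act in the making of polyunsaturated fatty acids. The list as a whole had 6 positive and 10 negative log2 fold changes (median -0.13, 0.036 without 20 C replicate 1 and 0.015 without 20 C replicate 3). The gene fat-2 encodes the desaturase that turns oleic acid into linoleic acid, and lies on chromosome IV from 13323873 to 13326395 on the plus strand of build ce11. Its level was 1292, 1344 and 1040 CPM at 20 C and 567, 503 and 535 CPM at 15 C. The 15 C libraries formed a tight group far below the 20 C libraries (log2 fold change -1.195, SE 0.17, adjusted p = 0.016), and with the ribosomal RNA covariate the adjusted p was 0.0471. The gene fat-1, for the desaturase that forms the n-3 series, stood at 786, 670.0 and 536 CPM at 20 C and 395, 327 and 347 CPM at 15 C, with no overlap (log2 fold change -0.90, SE 0.17, adjusted p = 0.0273). The level of fat-3, whose enzyme acts on the products of fat-2 and fat-1, was 299.8, 467 and 197 CPM at 20 C and 155, 168 and 138 CPM at 15 C (log2 fold change -1.06, SE 0.26, adjusted p = 0.0366). The 20 C replicate 2 was the highest for fat-3, and without it the log2 fold change was -0.69.

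The desaturases that make oleic-type acids from saturated ones did not pass the test. For fat-7 the levels were 142.3, 167 and 289.7 CPM at 20 C and 185, 365 and 444 CPM at 15 C. The groups overlapped, as 15 C replicate 1 lay below 20 C replicate 3 (log2 fold change 0.73, SE 0.37, adjusted p = 0.149), and the log2 ratio of the first to the second, which have like ribosomal RNA shares, was -0.64. The level of fat-5 was 60.2, 43.3 and 68 CPM at 20 C and 77.6, 86.2 and 99.6 CPM at 15 C, with all 15 C libraries above all 20 C libraries (log2 fold change 0.62, SE 0.25, adjusted p = 0.0961), and that of fat-6 was 439.8, 378 and 357 CPM at 20 C and 386, 375 and 356 CPM at 15 C, which overlapped widely (log2 fold change -0.07, SE 0.15, adjusted p = 0.722). The membrane fluidity sensor gene paqr-2 stood at 57.8, 54.2 and 48.7 CPM at 20 C and 53.4, 44.3 and 49.8 CPM at 15 C, also overlapping (log2 fold change -0.12, SE 0.19, adjusted p = 0.632). Of 19 membrane fluidity regulators 1 fell (5.263%, against 7.77% of all genes called lower), acdh-11, an acyl-CoA dehydrogenase gene known to restrain fat-7 in warm worms. It stood at 88.5, 106 and 75.2 CPM at 20 C and 66.8, 55 and 56.4 CPM at 15 C (log2 fold change -0.60, SE 0.17, adjusted p = 0.0485).

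Fatty acid breakdown showed larger counts. Of 22 genes of peroxisomal beta-oxidation, which shortens very long chains and makes the ascaroside pheromones, 10 fell and none rose (median -0.89). The gene daf-22, for the thiolase of the last step, stood at 167, 209.6 and 109 CPM at 20 C and 82.8, 75.7 and 75 CPM at 15 C, where the 20 C libraries spread widely and all lay above the 15 C libraries (log2 fold change -1.06, SE 0.20, adjusted p = 0.0276). The hydratase gene maoc-1, which shares 105 exonic bases with an opposite gene, stood at 130.1, 168 and 111 CPM at 20 C and 70.1, 61.4 and 60.1 CPM at 15 C (log2 fold change -1.09, SE 0.18, adjusted p = 0.0192). Levels of ctl-2, the peroxisomal catalase gene, were 131, 175 and 96.8 CPM at 20 C and 61.9, 48.4 and 53.2 CPM at 15 C, with 20 C replicate 2 highest (log2 fold change -1.301, SE 0.21, adjusted p = 0.0181), and some of its reads could belong to its close neighbours ctl-1 and ctl-3. Without 20 C replicate 2 the median of these peroxisomal genes was -0.59.

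Of 27 mitochondrial beta-oxidation genes 8 fell, none rose and 9 had a positive log2 fold change (median -0.30), among them the acyl-CoA synthetase gene acs-2, at 171, 351 and 140.1 CPM at 20 C and 88.2, 39.7 and 51.6 CPM at 15 C (log2 fold change -1.88, SE 0.40, adjusted p = 0.0291). Of 21 lipase and fat store genes 5 fell and none rose. The lysosomal lipase gene lipl-5 stood at 597, 295 and 313 CPM at 20 C and 184, 157 and 181 CPM at 15 C, with 20 C replicate 1 highest and no overlap (log2 fold change -1.21, SE 0.25, adjusted p = 0.0278, and -0.795 without that library). Among 9 tested lbp genes for fatty acid binding proteins 3 fell (lbp-1, lbp-2 and lbp-3), and lbp-2 stood at 808, 844 and 505 CPM at 20 C and 432, 319 and 358 CPM at 15 C (log2 fold change -0.96, SE 0.23, adjusted p = 0.0359). Genes of glycolysis, gluconeogenesis and the glyoxylate cycle gave 3 falls and no rise in 38 tested. That is 7.895%, near the 7.77% of all genes called lower, and the median was -0.08, against -0.07 for all genes. Among the 3 falls were pck-2 and icl-1. The carboxykinase gene pck-2, of the path from fat and amino acids to sugar, stood at 1177, 1521 and 1139 CPM at 20 C and 744, 629 and 578 CPM at 15 C (log2 fold change -0.98, SE 0.19, adjusted p = 0.0276). The level of icl-1, the glyoxylate cycle gene that links fat to sugar in worms, was 576, 2766 and 585 CPM at 20 C and 392, 264 and 246 CPM at 15 C, where the single value of 20 C replicate 2 was far above all others (log2 fold change -2.12, SE 0.58, adjusted p = 0.0442), and without that library the log2 fold change was -0.95.

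**Figure D3:**
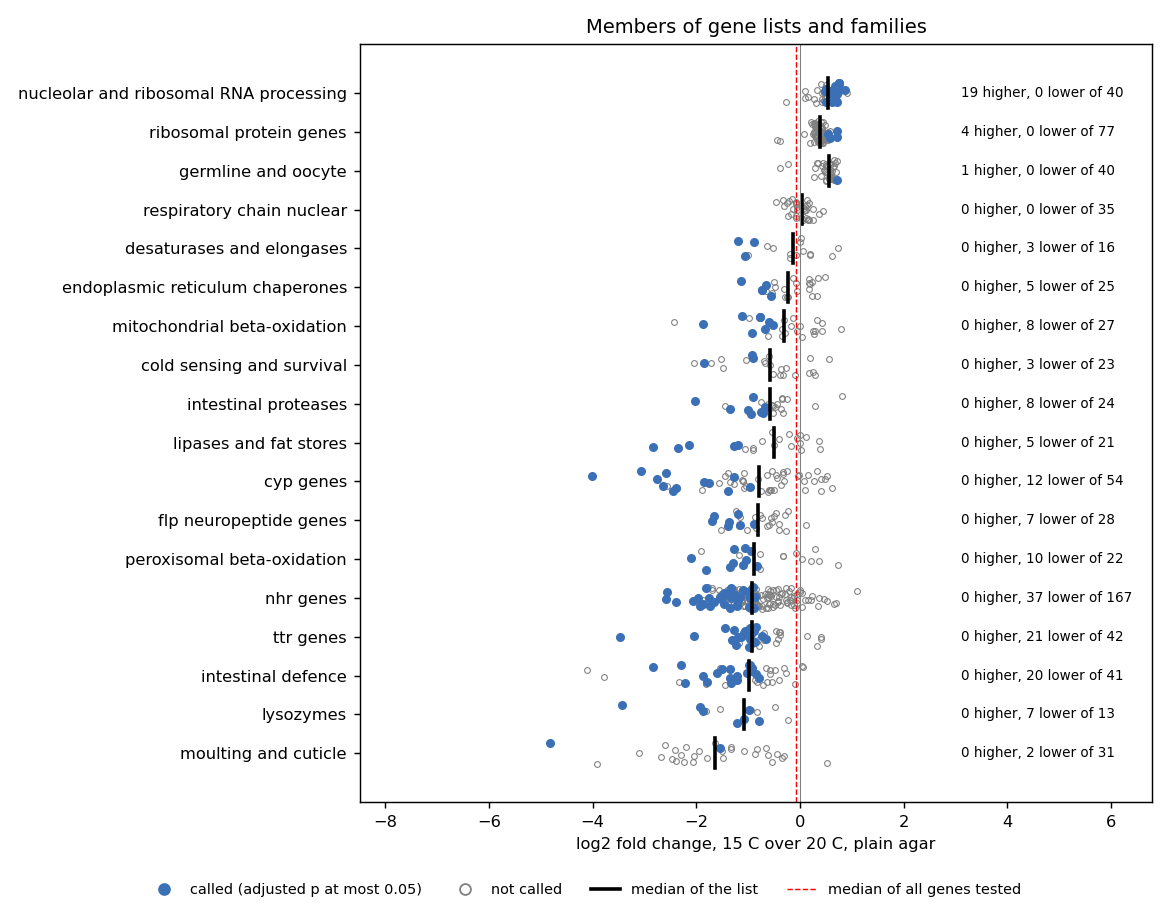
Log2 fold change (15 C over 20 C) of the tested members of 18 gene lists and families, filled where called and open where not, with each list's median as a black bar and the median of all genes as a dashed line. Nucleolar genes lie to the right of 0 with 19 of 40 called higher, and lysozyme, defence and ttr genes lie to the left with 7 of 13, 20 of 41 and 21 of 42 called lower.

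Genes of intestinal defence were lower at 15 C. Of 41 genes on that list, 20 fell and none rose (median -0.99), and of 13 lysozyme genes, whose products cut bacterial cell walls, 7 fell and none rose (median -1.08). Of the called genes, lys-1, lys-2 and lys-8 are on both lists. The gene lys-2 stood at 278, 335 and 175 CPM at 20 C and 113, 60.8 and 42.1 CPM at 15 C. The highest 15 C library lay under the lowest 20 C library (log2 fold change -1.87, SE 0.32, adjusted p = 0.0236). The level of lys-1 was 512, 538 and 320.5 CPM at 20 C and 230.0, 203 and 157 CPM at 15 C, with no overlap (log2 fold change -1.21, SE 0.21, adjusted p = 0.0238). With the ribosomal RNA covariate lys-1 and lys-2 had adjusted p-values of 0.048 and 0.0471. For lys-7 the levels were 33.5, 14.5 and 23.4 CPM at 20 C and 12.21, 4.11 and 7.92 CPM at 15 C, again without overlap, but the adjusted p missed the threshold (log2 fold change -1.54, SE 0.45, adjusted p = 0.0501).

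C-type lectin genes belong to the same kind of secreted defence proteins. Of 79 tested clec genes 18 fell and none rose (median -0.71). The family overlaps the intestinal defence list, which also holds clec-65. The level of clec-5 was 70.01, 129 and 64.3 CPM at 20 C and 25.3, 29.9 and 21.3 CPM at 15 C (log2 fold change -1.78, SE 0.27, adjusted p = 0.016), and that of clec-65 was 227, 202 and 123 CPM at 20 C and 89.2, 55.9 and 50.3 CPM at 15 C (log2 fold change -1.498, SE 0.25, adjusted p = 0.0192). Both had no overlap, with 20 C replicate 2 highest for clec-5 and 20 C replicate 1 for clec-65. The infection response gene irg-8 moved by less and was even within groups, at 312, 293 and 348 CPM at 20 C and 190.0, 188 and 175 CPM at 15 C (log2 fold change -0.79, SE 0.14, adjusted p = 0.0258). The transcription factor gene zip-2, a regulator of infection responses, stood at 226, 318 and 220.1 CPM at 20 C and 154, 117 and 94.5 CPM at 15 C (log2 fold change -1.06, SE 0.29, adjusted p = 0.0446). The summed markers of the intestine overlapped, at 91438, 113621 and 114961 CPM at 20 C and 103306, 80549 and 58958 CPM at 15 C, so 15 C replicate 1 was within the 20 C range. Their part in these falls was not tested.

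Digestive and lysosomal proteases also fell. Of 24 intestinal protease genes 8 fell and none rose (median -0.58). The cathepsin B-like gene cpr-4, on chromosome V from 6614674 to 6615851 on the plus strand of build ce11, stood at 1294, 1761 and 884 CPM at 20 C and 375, 235.3 and 352 CPM at 15 C, and the highest 15 C library had less than the lowest 20 C library (log2 fold change -2.03, SE 0.30, adjusted p = 0.016). Among the abundant aspartyl protease genes, asp-5 stood at 1284, 1458 and 979.8 CPM at 20 C and 792, 472 and 579.5 CPM at 15 C (log2 fold change -1.01, SE 0.26, adjusted p = 0.0378) and asp-6 at 3035, 3747 and 2577 CPM at 20 C and 2104, 1251 and 1520 CPM at 15 C (log2 fold change -0.94, SE 0.27, adjusted p = 0.0482). In both the 15 C replicate 1 was the nearest to the 20 C libraries.

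Small secreted proteins related to transthyretin are encoded by the ttr family. Of 42 tested ttr genes, 21 fell, none rose and 32 did not overlap (median -0.93). The level of ttr-46 was 335, 324 and 206.7 CPM at 20 C and 180.5, 148 and 126 CPM at 15 C (log2 fold change -0.93, SE 0.19, adjusted p = 0.0276), and that of ttr-6 was 144, 192 and 121 CPM at 20 C and 95.3, 67.4 and 69.1 CPM at 15 C (log2 fold change -0.98, SE 0.20, adjusted p = 0.0276). Levels of ttr-16 were 366, 418 and 374 CPM at 20 C and 256, 206.9 and 236 CPM at 15 C with a narrow spread in each group (log2 fold change -0.73, SE 0.15, adjusted p = 0.0276), and 209 of its exonic bases overlap an opposite gene. Every 20 C library was above every 15 C library for all 3 genes.

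Receptor and detoxification families held falls and no rises. Of 167 tested nuclear hormone receptor genes (nhr) 37 fell and none rose (median -0.93), of 54 cytochrome P450 genes (cyp) 12 fell, and of 54 glucuronosyltransferase genes (ugt) 10 fell, with none higher in either family. Of 30 glutathione S-transferase genes (gst), another detoxification family, 1 fell, gst-22 (3.333%, against 7.77% of all genes), and 16 had a positive log2 fold change (median 0.03). The receptor gene nhr-8, known for roles in sterol and toxin handling, stood at 31.1, 43.8 and 23.3 CPM at 20 C and 16.18, 8.74 and 8.9 CPM at 15 C (log2 fold change -1.53, SE 0.29, adjusted p = 0.0267). The levels of cyp-34A8 were 16.6, 15.7 and 14.9 CPM at 20 C and 6.81, 6.68 and 5.97 CPM at 15 C, an even spread on both sides with a clear gap (log2 fold change -1.28, SE 0.20, adjusted p = 0.0181). For ugt-26 they were 70.5, 76 and 58.6 CPM at 20 C and 25.2, 18.9 and 15.3 CPM at 15 C, also without overlap (log2 fold change -1.78, SE 0.25, adjusted p = 0.016). Without 20 C replicate 2 the medians of the nhr, cyp and ugt genes were -0.54, -0.72 and -0.46.

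In the endoplasmic reticulum 5 of 25 chaperone and stress response genes fell and none rose (median -0.23). The gene xbp-1, for the transcription factor of the unfolded protein response, stood at 362, 464 and 323 CPM at 20 C and 188, 172 and 164 CPM at 15 C (log2 fold change -1.13, SE 0.23, adjusted p = 0.0276). The calreticulin gene crt-1 stood at 969.6, 1028 and 843 CPM at 20 C and 608, 566 and 631 CPM at 15 C (log2 fold change -0.65, SE 0.16, adjusted p = 0.0366), and dnj-7, for a co-chaperone with a J domain, at 52.1, 52.3 and 49.6 CPM at 20 C and 32.5, 29.9 and 29.6 CPM at 15 C (log2 fold change -0.74, SE 0.16, adjusted p = 0.0278). None of the 3 overlapped. The paired BiP chaperone genes gave different calls: hsp-3 stood at 445, 436 and 564 CPM at 20 C and 309, 347 and 323 CPM at 15 C (log2 fold change -0.56, SE 0.14, adjusted p = 0.0372), while hsp-4 stood at 404, 207.1 and 335 CPM at 20 C and 362, 328 and 376 CPM at 15 C and overlapped (log2 fold change 0.17, SE 0.20, adjusted p = 0.522). Whether these 2 changes differ was not tested.

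Of 23 tested genes of cold sensing and cold survival 3 fell and none rose: ftn-1, ets-4 and sgk-1. That is 13.04% of the list, against 7.77% of all genes called lower. The iron storage gene ftn-1, which encodes a ferritin, stood at 13.3, 23.7 and 7.68 CPM at 20 C and 4.37, 2.98 and 4.83 CPM at 15 C (log2 fold change -1.86, SE 0.42, adjusted p = 0.0323). The transcription factor gene ets-4, whose mRNA the RNase REGE-1 is known to cut, stood at 25.6, 35.5 and 31.3 CPM at 20 C and 18.4, 16.45 and 14.3 CPM at 15 C (log2 fold change -0.91, SE 0.21, adjusted p = 0.0334), and rege-1 itself stood at 18.4, 25.8 and 19.5 CPM at 20 C and 12.9, 12.85 and 13.7 CPM at 15 C without passing the test (log2 fold change -0.69, SE 0.23, adjusted p = 0.0638). The 20 C libraries were above the 15 C libraries for all 3. The kinase gene sgk-1 stood at 50.8, 79.3 and 48.9 CPM at 20 C and 35, 28.3 and 30.6 CPM at 15 C, with 20 C replicate 2 highest (log2 fold change -0.93, SE 0.21, adjusted p = 0.0318).

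Other known genes of the cold response did not pass. The transcription factor gene zip-10, which is linked to death after severe cold, stood at 11.6, 22.6 and 6.43 CPM at 20 C and 3.97, 4.01 and 1.9 CPM at 15 C with no overlap (log2 fold change -2.04, SE 0.63, adjusted p = 0.055). Its reported target asp-17 stood at 4.04, 2.48 and 2.27 CPM at 20 C and 3.07, 1.95 and 1.74 CPM at 15 C, and the cold-activated channel gene trpa-1 at 2.62, 8.3 and 5.85 CPM at 20 C and 3.35, 3.8 and 3.31 CPM at 15 C. Both overlapped (log2 fold change -0.37, SE 0.46, adjusted p = 0.535 for asp-17 and log2 fold change -0.68, SE 0.42, adjusted p = 0.226 for trpa-1). The genes listed as targets of DAF-16, the transcription factor of insulin signalling, include dod-19, dod-22, dod-24, lys-7 and lys-8 of the intestinal defence list. Of 29 tested, 10 fell and none rose (median -0.99). The list holds genes that DAF-16 is known to activate, such as the metallothionein gene mtl-1 (6.17, 8.15 and 3.77 CPM at 20 C and 1.42, 0.103 and 0.326 CPM at 15 C), and also ins-7, which it is known to repress (2.18, 5.74 and 1.88 CPM at 20 C and 0.965, 0.514 and 0.814 CPM at 15 C), and both were among the 10.

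The flp and nlp families held falls and no rises. Of 28 flp genes, for FMRFamide-like peptides, 7 fell, none rose and 27 had a negative log2 fold change (median -0.81). Of 49 nlp genes, for other neuropeptide-like proteins, 6 fell (12.24%, against 7.77% of all genes called lower) and none rose. A negative log2 fold change was found for 44 (median -0.76). The nlp family also includes genes for epidermal antimicrobial peptides, and 2 of the 6 falls, nlp-28 and nlp-33, are such genes. The level of flp-6 was 97, 131 and 63.8 CPM at 20 C and 40.2, 27 and 22 CPM at 15 C, with all 15 C libraries below all 20 C libraries (log2 fold change -1.71, SE 0.32, adjusted p = 0.0267). For flp-28 the levels were 32.9, 51.9 and 32.2 CPM at 20 C and 23.1, 19.1 and 20.8 CPM at 15 C (log2 fold change -0.89, SE 0.21, adjusted p = 0.0343), and for nlp-40, a peptide gene of the intestine, they were 357, 289.8 and 227 CPM at 20 C and 199, 154 and 162 CPM at 15 C (log2 fold change -0.76, SE 0.18, adjusted p = 0.0338). Summed neuron markers stood at 362, 689 and 395 CPM at 20 C and 320, 299 and 296 CPM at 15 C, so that 20 C replicate 2 was far above the rest. The part of neuron markers in the falls was not tested, and without 20 C replicate 2 the median of flp genes was -0.55.

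The study concerns forgetting, and genes tied to smell and memory gave few calls. Of 16 tested genes of odour signalling in the AWC neuron none was called (median -0.36). Of 30 genes of learning, memory and forgetting 1 was called (3.333%, against 9.97% of all genes), hpl-2, a gene for a heterochromatin protein. It rose from 45.2, 40.3 and 46.7 CPM at 20 C to 65.2, 69.3 and 71.6 CPM at 15 C (log2 fold change 0.64, SE 0.15, adjusted p = 0.0335). The guanylate cyclase genes gcy-8, of temperature sensing, and odr-1, of odour sensing, were below the filter on low counts: gcy-8 stood at 0.164, 0.922 and 0.193 CPM at 20 C and 0.341, 0.103 and 0.326 CPM at 15 C and odr-1 at 0, 0.355 and 0.0483 CPM at 20 C and 0.17, 0 and 0.271 CPM at 15 C.

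The largest falls by size rested on 20 C replicate 2. By the same rule, the 10 called genes with the largest falls were cut-3, F53B2.8, srr-6, C02E7.6, C49G7.7, tts-1, glf-1, F33H12.7, T26H5.9 and mtre-1, and in each of them that library was the highest. The cuticlin gene cut-3 stood at 4.53, 63.1 and 4.98 CPM at 20 C and 0.397, 2.16 and 0.271 CPM at 15 C (log2 fold change -4.83, SE 1.18, adjusted p = 0.0365), and without 20 C replicate 2 the log2 fold change was -2.49. The long non-coding RNA tts-1, on chromosome X from 1504131 to 1504841 on the minus strand of build ce11, stood at 277, 1085 and 78.8 CPM at 20 C and 54.3, 20.4 and 18.8 CPM at 15 C (log2 fold change -3.94, SE 0.93, adjusted p = 0.0341), against -2.51 without that library. For F53B2.8 the levels were 75.5, 519.5 and 43.7 CPM at 20 C and 12.4, 7.61 and 6.19 CPM at 15 C (log2 fold change -4.60, SE 1.01, adjusted p = 0.0301, and -2.76 without it). The mutase gene glf-1, of sugar precursors for the cell surface, stood at 2.73, 45.5 and 4.54 CPM at 20 C and 0.454, 2.16 and 1.03 CPM at 15 C (log2 fold change -3.91, SE 1.096, adjusted p = 0.0492, and -1.65 without it).

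The moulting and cuticle genes as a group showed what sets that library apart. Of 31 tested 2 fell, cut-3 and nas-37 (6.452%, against 7.77% of all genes). The median was -1.65, but it was -0.34 without 20 C replicate 2. Levels of 7 of the 31 did not overlap, against 45.7% of all genes. The protease gene nas-37, needed to shed the old cuticle, stood at 42.2, 160.1 and 48.5 CPM at 20 C and 27, 28.2 and 30.2 CPM at 15 C (log2 fold change -1.55, SE 0.43, adjusted p = 0.0458, and -0.67 without it). The adult collagen gene col-19 stood at 506, 567 and 699 CPM at 20 C and 567, 661 and 733 CPM at 15 C, overlapping (log2 fold change 0.15, SE 0.21, adjusted p = 0.6), and summed adult cuticle markers ran from 3925 to 5282 CPM at 20 C and from 4261 to 4344 CPM at 15 C. The collagen family gave 4 falls and no rise in 72 tested genes (median -0.07). That is 5.556%, below the 7.77% of all genes called lower.

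**Figure D4:**
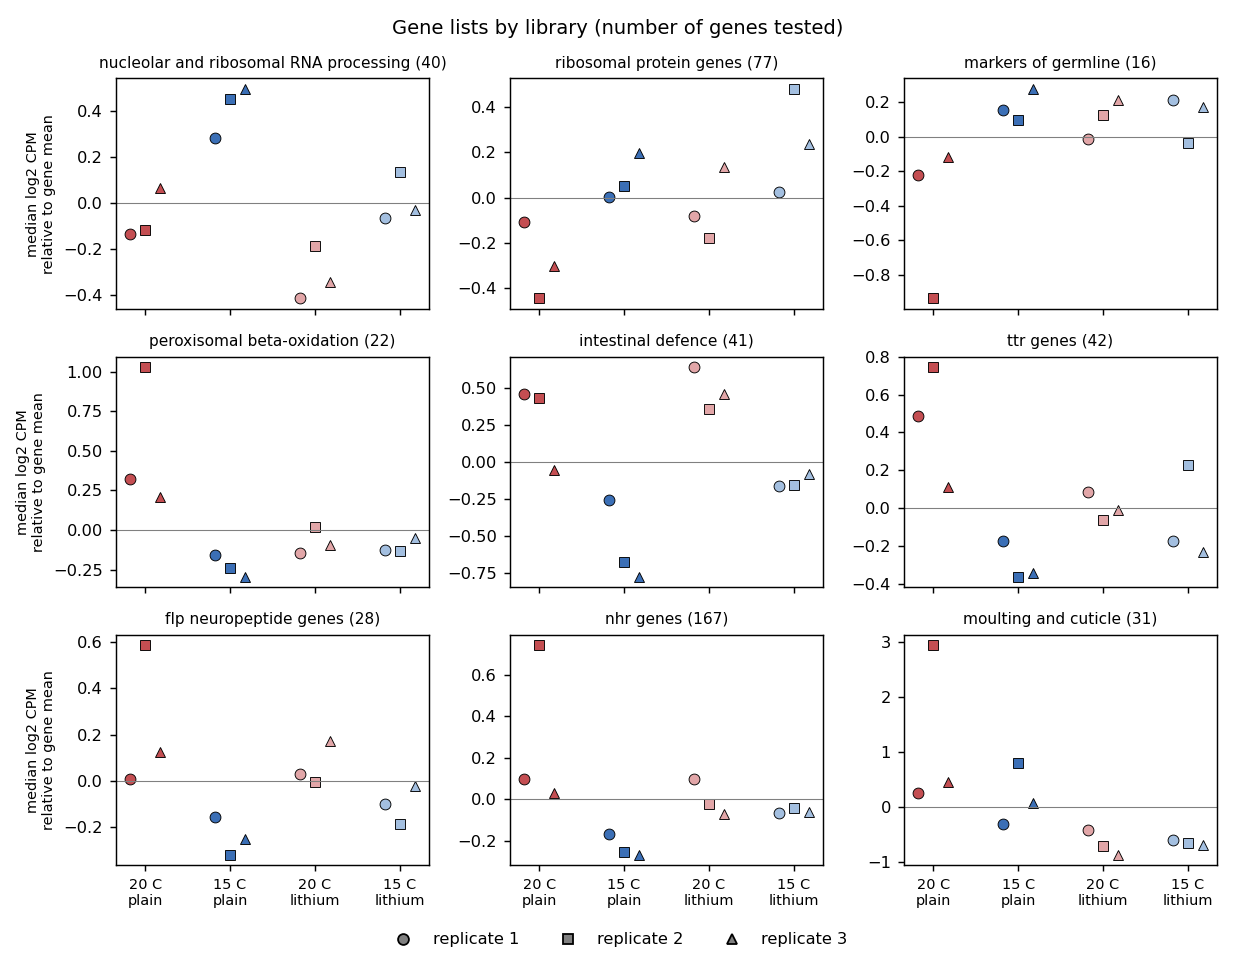
Median log2 level of 9 gene lists in each untrained library, relative to each gene's mean over the 12 libraries, with symbols for replicates and the number of genes tested in each title. Nucleolar genes are higher in all 3 plain libraries at 15 C than in all 3 at 20 C, while moulting and cuticle genes reach 2.93 in 20 C replicate 2 alone.

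Genes of the respiratory chain gave no call. None of 35 nuclear genes of the respiratory chain and none of 12 protein genes of the mitochondrial genome, which were matched by chromosome, was called, with medians of 0.03 and -0.10, and the first turned to -0.21 under library size scaling and -0.15 under upper quartile scaling. Of 11 vitellogenin and yolk genes 2 fell and none rose (median -0.37), the regulators pqm-1, at 76.6, 86.8 and 54.1 CPM at 20 C and 37.1, 30.2 and 33.6 CPM at 15 C (log2 fold change -1.11, SE 0.29, adjusted p = 0.0398), and ceh-60, at 12.61, 17.4 and 11.1 CPM at 20 C and 9.2, 6.58 and 4.83 CPM at 15 C (log2 fold change -0.99, SE 0.27, adjusted p = 0.0454). The groups did not overlap for either gene, and 72 exonic bases of ceh-60 overlap ets-4 on the other strand. The yolk protein gene vit-2 stood at 36570, 50810 and 48190 CPM at 20 C and 43860, 34100 and 23720 CPM at 15 C and overlapped (log2 fold change -0.41, SE 0.27, adjusted p = 0.254). Of 21 cytosolic heat shock genes 2 fell, hsp-12.1 and hsp-12.3 (9.524%, against 7.77% of all genes). The median of -0.34 became 0.37 with 15 C replicate 1 as the only 15 C plain library. The 24 tested histone genes had a median of 0.90, though 2 fell (8.333%, against 7.77% of all genes) and none was called higher. Their median was 0.08 with 15 C replicate 1 alone. Reads of near-identical histone copies cannot be assigned with certainty.

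The same temperatures on lithium agar gave a second view, from 6 other libraries in the same fit. No gene was called there in edgeR (lowest adjusted p 0.0866), 1445 of 12392 (11.7%) had an unadjusted p under 0.05, and DESeq2 called 20 higher and 63 lower. Of the 963 genes called lower on plain agar, 854 (88.7%) had a negative log2 fold change on lithium agar, and of the 272 called higher, 256 (94.1%) a positive one, against 45.9% negative and 54.1% positive for all genes. Their medians on lithium agar were -0.49 and 0.32, smaller in size than on plain agar. The genes were picked by their plain agar values, which favours larger changes on plain agar, so the 2 sizes cannot be compared fairly. For fat-2 the log2 fold change on lithium agar was -1.14 (SE 0.17), for cpr-4 -1.06 (SE 0.29), for flp-6 -1.29 (SE 0.32), for rbm-3.1 0.90 (SE 0.26) and for nol-56 0.64 (SE 0.14). The nucleolar list had 37 of 40 genes positive (median 0.37) and intestinal defence 37 of 41 negative (median -0.81).

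**Figure D5:**
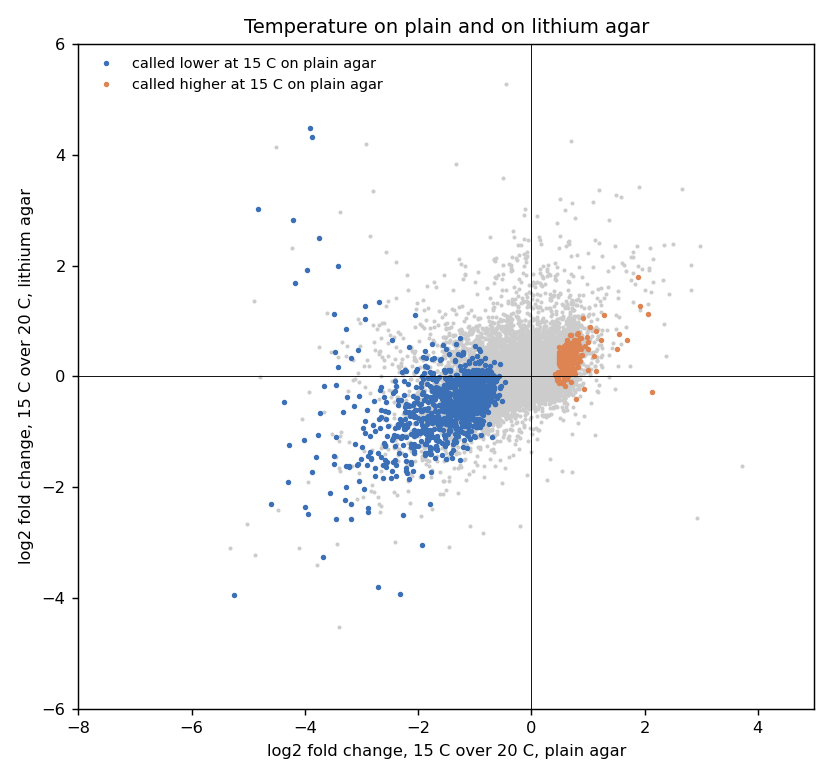
Log2 fold change of each tested gene between 15 C and 20 C on plain agar (x) and on lithium agar (y), with genes called lower on plain agar in blue, those called higher in orange and the rest in grey. Of the blue genes, 88.7% lie below 0 on the y axis, and of the orange ones 94.1% lie above 0.

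Other groups had unlike values on the 2 agars. Germline and oocyte genes had a median of 0.56 on plain and -0.17 on lithium agar, ttr genes -0.93 and -0.08, peroxisomal genes -0.89 and -0.04, and epidermal antimicrobial peptide genes -1.102 and 0.89. For nhr genes the medians were -0.93 and -0.09, for ugt genes -0.56 and 0.009, and for moulting and cuticle genes -1.65 and -0.14. The test of the difference between the temperature effects called no single gene in edgeR, with 1261 genes (10.2%) at an unadjusted p under 0.05, or in DESeq2. The same 20 C replicate 2 enters every plain value, and without it the medians on plain agar of germline, ttr, peroxisomal and antimicrobial peptide genes were 0.32, -0.74, -0.59 and -0.82. Those of nhr, ugt and moulting genes were then -0.54, -0.46 and -0.34. The lithium values also hold a library that stands apart. Relative to the mean of the untrained libraries, antimicrobial peptide genes stood at 0.14, -0.50 and -0.37 at 20 C on lithium agar. At 15 C on lithium agar they stood at 0.04, 0.78 and -0.20, and the 0.78 is replicate 2, with 13.8% ribosomal RNA. The ttr genes were also highest there, at -0.17, 0.23 and -0.23 at 15 C on lithium agar.

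On ice most of these genes had the opposite sign. The ice libraries were made with another library kit, included butanone-conditioned worms and were fitted apart, so only signs are set side by side. All 18 entered that fit as 9 sums of naive and conditioned counts in 3 groups. The contrast used the 15 C and 20 C groups, which hold 12 of the libraries. Of 15412 genes none (0%) was called in edgeR and 1945 had an unadjusted p under 0.05, while DESeq2 called 145 higher and 39 lower. Of 957 genes called lower on plain agar and tested on ice, 312 (32.6%) had a negative log2 fold change there, and of 271 called higher, 102 (37.6%) a positive one, against 48.8% negative and 51.2% positive for all 12139 genes tested in both.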

How the data were processed

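The deposited values are raw counts of reads per gene, whole numbers that the authors did not scale, for the 12 untrained and the 18 ice libraries separately, and all columns were matched to samples by title. The submitters' processing notes name DESeq2, HTSeq, HISAT2, FastQC and cutadapt, in no stated order, and build ce11. Per the labels' protocols the untrained libraries come from a directional NEBNext kit. How strand was set in the counting is not given in the sources used here. Symbols and coordinates came from Ensembl release 115 (46817 of 46904 rows matched).

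The 12 untrained libraries were fitted together in edgeR 4.0.16, run under R 4.3.3, as 4 groups of 3, with TMM scaling, filterByExpr and the robust quasi-likelihood test, two-sided, and Benjamini-Hochberg adjustment over all 12392 genes tested. A gene was called at an adjusted p of at most 0.05. The common biological coefficient of variation was 0.294. Log2 fold changes are 15 C over 20 C, and CPM are per TMM-scaled library size. The fit was tested on simulated data. Depth was 12039753 to 21957091 counts per plain agar library. The ice experiment was fitted apart as 9 sums of naive and conditioned counts in 3 groups.

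Named genes were the 10 largest called changes in each direction without overlap and with at least 10 CPM in the higher group, up to 4 called members of each list with the smallest p, and a short list of cold and defence genes. The genes, lists and tests were chosen with earlier results of these data known. Alternatives were DESeq2 1.42.0, other scalings and filters, the ribosomal RNA rows removed or the log2 of their share as covariate, a replicate block, the plain libraries alone, and each library left out. Same-numbered libraries at 15 C and 20 C correlated at 0.01, 0.40 and 0.16 (r of deviations from group means across genes), and their numbers were not taken as pairs. Of 152 genes named by the rule, 29 share exonic bases with a gene on the other strand.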

Additional observations from a re-analysis of the deposited data

Results flagged for a closer look

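The collagen gene col-14 was singled out because its libraries moved in opposite directions on the 2 agars, without overlap on either. On plain agar it stood at 0.546, 4.25 and 2.17 CPM at 20 C and 0.170, 0.411 and 0.488 CPM at 15 C (log2 fold change -2.68, SE 0.65, adjusted p = 0.0365 in edgeR's quasi-likelihood test). On lithium agar its log2 fold change was 1.34 (SE 0.68, unadjusted p = 0.0714 in the same edgeR fit). The difference of the temperature effects was -4.02 on the log2 scale, and the edgeR test of that difference called no gene after adjustment. Its levels are low and closely related collagens make the assignment of reads uncertain. Without 20 C replicate 2 the log2 fold change on plain agar was -1.94.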

How the results depend on the processing

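Main counts on plain agar were 272 genes higher and 963 lower at 15 C. Higher and lower counts were 1217 and 1746 with DESeq2, 12 and 1966 with library size alone, 87 and 1774 with upper quartile scaling, 51 and 660 without the filter, 0 and 55 with the ribosomal RNA share as covariate, 0 and 0 with the 6 plain libraries alone, and 0 and 0 without number 2 of every group. With each plain library left out in turn they ran from 0 to 831 higher and from 0 to 1997 lower. With 15 C replicate 1 as the only 15 C plain library, an alternative chosen after seeing the data in which that lone library is assumed to vary like the other groups, they were 0 and 0. The cause of these changes was not tested. RLE size factors, a stricter filter, the test without robust weights and removal of ribosomal RNA rows stayed within 1.5 times of both main counts.

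The replicate block gave 300 genes higher and 952 lower on plain agar, of which 1021 are among the 1235. Correlations of same-numbered libraries over all 18 pairs ran from -0.36 to 0.42, with 12 above 0.1. Of 138 called named genes, 14 missed the threshold under the block.

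On lithium agar edgeR called 0 genes, DESeq2 83, the fit without a filter 11, the replicate block 3, and fits leaving out 1 library from 0 to 8. On ice edgeR called 0 genes, DESeq2 184 and the fit without a filter 972.

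Called genes that are named did not turn their direction in the alternatives run, which their choice largely fixes, as most have libraries that do not overlap. Genes that were not called did. With 15 C replicate 1 as the only 15 C plain library the log2 fold changes were 0.0606 for fat-6, -0.0185 for fat-7, 0.0789 for paqr-2, 0.132 for asp-17 and 0.0536 for vit-2. With 1 plain library left out, fat-6 ran from -0.151 (without 20 C replicate 3) to 0.0291 (without 20 C replicate 1) and hsp-4 from -0.0555 (without 20 C replicate 2) to 0.398 (without 20 C replicate 1). With library size alone and with upper quartile scaling hsp-4 stood at -0.0562 and -0.0042, and col-19 at -0.111 and -0.0275. None of the 138 called named genes kept its call without 15 C replicate 2 or without 15 C replicate 3, and 16 kept it with the covariate. Each group holds 3 libraries, which differed by more than counting error. How far depth limits precision was not tested, and genes below the filter, such as gcy-8 and odr-1, could not be tested.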

Other observations

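The called genes were spread unevenly over the chromosomes, as a description that the comparison was not built for. On chromosome X, 2 of 1789 tested genes rose and 183 fell (0.112% and 10.2%), with a median log2 fold change of -0.52. On chromosome V, 41 of 2313 rose and 278 fell (1.77% and 12.0%, median -0.32). On chromosome I, 74 of 2071 rose and 96 fell (3.57% and 4.64%, median 0.22). Chromosomes II, III and IV lay between, with medians of 0.06, 0.15 and -0.06. Germline markers were higher at 15 C in the same libraries, and their part in this distribution was not tested.

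Counts for transcripts other than protein-coding ones stand beside 9.97% called and 7.77% lower for all genes. Of 83 tested ncRNA genes 8 fell (9.64%) and none rose, of 34 lincRNA genes 3 fell (8.82%) and none rose, and none of 46 snoRNA genes was called in edgeR. Of 322 pseudogenes 10 rose and 15 fell (7.76% called).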
